A study of Mus musculus with 47 samples.

Results

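GABA-A receptors are chloride channels built from subunits of several classes, and they carry most of the fast inhibition of the cortex. Alpha and beta subunits form the GABA binding site, and a delta subunit takes part in receptors outside synapses that hold a tonic current, in the forebrain often together with the alpha subunit of Gabra4. The subunit of Gabra5 is best known from the hippocampus, where much of it lies outside synapses, and those of Gabra2 and Gabra3 are common at synapses. Transcripts of 7 subunit genes that are used in the cortex were followed here: the alpha genes Gabra2, Gabra3, Gabra4 and Gabra5, the beta genes Gabrb1 and Gabrb2, and the delta gene Gabrd. They were chosen by symbol and found by Ensembl identifier among the 54281 genes of the deposited table of TPM, a transcript level corrected for length and depth, and Gabra6, a gene of the cerebellum, was left out.

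The study asked whether loss of microglia changes daily rhythms in the brain. Bulk RNA was sequenced from the microdissected cortex of 47 male C57BL/6J mice of about 3 months, 1 library per mouse. Of these libraries, 23 came from mice on control chow and 24 from mice on chow with PLX5622 at 1200 ppm, an inhibitor of the CSF1R receptor that microglia need to survive, each given for 10 days. Both diets were harvested at Zeitgeber times (ZT, hours after lights on) 2, 6, 10, 14, 18 and 22, and 4 libraries per group, 3 in the control group at ZT14, were analysed here. PLX5622 acts on the whole body and also reaches other macrophages of the brain. The depth of a library lay between 16597987 and 27626161 counts; its median was 18314954 counts for the control diet and 21476967.5 counts for PLX5622.

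The libraries followed their labels. Csf1r, the receptor targeted by the drug, had a mean of 51.6 ± 13.6 TPM (SD, n = 23) in control mice and 4.19 ± 2.77 TPM (SD, n = 24) in PLX5622 mice, and Cx3cr1, P2ry12 and Tmem119, other genes of microglia, had log2 differences of -3.11, -3.44 and -2.79. The lowest control library stood above the highest PLX5622 library for each of these 4 genes. For time, Dbp peaked at ZT 12.1 and Arntl, the gene of the clock protein BMAL1, at ZT 0.849, with adjusted p of 4.75e-23 and 6.39e-11 in limma, and Per2 peaked at ZT 16.1 with an adjusted p of 0.00136. All 12 genes of the list for cortical excitatory neurons passed the filter of a mean of at least 1 TPM, led by Slc17a7, a glutamate transporter of synaptic vesicles, at 553 TPM. All 11 genes of the list for cortical interneurons passed as well, led by Sst at 432 TPM. Genes of neighbouring tissue were also high, with Ttr of the choroid plexus at 650 TPM. A striatum list summed to 764 TPM in control and 833 TPM in PLX5622 mice.

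All 7 subunit genes passed the filter, and each had counts in every library, from 515 for Gabra2 at its lowest to 3662 for Gabra3 at its highest. Gabra3 had the highest level, with a mean of 58.4 ± 6.38 TPM (SD, n = 47). The delta gene Gabrd followed with 46.0 ± 7.34 TPM. Gabra4, Gabra5 and Gabrb2 lay close to each other at 35.4 ± 5.64, 33.3 ± 5.52 and 32.6 ± 8.54 TPM. Gabra2 with 13.0 ± 2.13 TPM and Gabrb1 with 12.2 ± 2.63 TPM were the lowest of the 7. Within a library, Gabrb2 exceeded Gabra2 in 47 of 47 libraries and Gabrd exceeded Gabra4 in 46, with mean log2 ratios of 1.29 ± 0.32 and 0.38 ± 0.17 (SD). Gabra3 exceeded Gabrd in 45 of 47 libraries, although the mean log2 ratio of 0.35 was less than 2 SD (SD 0.22). Neighbours at the middle and the bottom of the order did not differ beyond their spread: Gabra4 exceeded Gabra5 in 31 libraries, Gabra5 exceeded Gabrb2 in 28 and Gabra2 exceeded Gabrb1 in 31.

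Part of this order was different on another scale, which differs in both the quantification and the length used. FPKM computed from the counts and the summed exon length of each gene put Gabra5 above Gabra4 (20.4 against 17.2 FPKM, in 44 of 47 libraries) and Gabrb1 above Gabra2 (8.42 against 6.08 FPKM, in 47 of 47 libraries). The mean log2 ratio of the first pair, 0.25, was less than 2 SD (SD 0.19), and that of the second, 0.47, was more (SD 0.22). Gabrd, with a mean of 46.0 TPM against 33.3 TPM for Gabra5, was close to it in FPKM (20.8 against 20.4 FPKM, higher in 29 of 47 libraries). Gabra3 was highest on both scales. In FPKM it exceeded Gabrd in 47 of 47 libraries, with a mean log2 ratio of 0.71 that was more than 2 SD (SD 0.18). In TPM, Gabra3 made up 25.4% ± 1.82 (SD, n = 47) of the summed level of the 7 genes, Gabrd 19.95% ± 2.28, Gabra4 15.4% ± 1.56, Gabra5 14.4% ± 1.43, Gabrb2 13.9% ± 2.20, Gabra2 5.67% ± 0.85 and Gabrb1 5.30% ± 0.87. The share of each gene differed between the diets by less than the SD within a diet.

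In GENCODE M21 on GRCm38, 3 of the genes lie on chromosome 5. Gabra2 spans 70957597 to 71095849 on the minus strand, and Gabra4 follows at 71569749 to 71658308 on the same strand, after 473899 bases. Gabrb1 spans 71658113 to 72149037 on the plus strand, so its 5′ end overlaps that of Gabra4 head to head by 196 bases, of which 46 are exonic in both genes. Gabra5 lies on chromosome 7 (57407672 to 57510059, minus strand), Gabrb2 on chromosome 11 (42419757 to 42629028, plus strand), Gabrd on chromosome 4 (155384980 to 155398112, minus strand) and Gabra3 on chromosome X (72432681 to 72656848, minus strand). Gabra5 shares 148 exonic bases of 2974 with 1 gene on the opposite strand. The sources used here do not state whether the counting used strand, so reads from these shared bases cannot be told apart.

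The first comparison asked whether the subunit transcripts differed between the diets. Gabra4 had a lowest, median and highest value of 22.7, 33.8 and 43.9 TPM in the 23 control mice. In the 24 PLX5622 mice these were 28.2, 37.4 and 46.4 TPM. The ranges overlapped widely, with 18 of 24 PLX5622 mice above the control median and 2 above the highest control mouse. Gabra5 had a lowest, median and highest value of 19.9, 31.1 and 38.2 TPM in control mice and of 26.3, 34.1 and 46.0 TPM in PLX5622 mice. Here 20 of 24 PLX5622 mice lay above the control median and 8 above the highest control mouse. In limma on log2(TPM + 1), with cosine and sine terms for ZT, PLX5622 minus control was 0.19 (SE 0.062, unadjusted p = 0.00367, adjusted p = 0.0822) for Gabra4 and 0.18 (SE 0.063, unadjusted p = 0.00759, adjusted p = 0.126) for Gabra5. Neither passed the threshold of an adjusted p of 0.05 over all 14580 genes tested (Benjamini-Hochberg).

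The ranges of the other 5 genes overlapped as well. Gabra2 ranged from 9.42 to 16.4 TPM in control mice and from 8.22 to 18.4 TPM in PLX5622 mice, with a difference of 0.11 (SE 0.054, unadjusted p = 0.0405, adjusted p = 0.281 in limma). Gabrb2 had the largest SE, 0.11, for a difference of 0.14, and its values ran from 19.4 to 47.7 TPM and from 20.2 to 52.0 TPM. The differences of Gabrb1, Gabrd and Gabra3 were 0.12 (SE 0.079), 0.07 (SE 0.063) and 0.06 (SE 0.046). All 7 estimates were above 0, with a median of 0.12, where the median over all genes tested was 0.03 and 9448 of the 14580 estimates were above 0. Both medians were lower with median-of-ratios scaling (0.09 and 0.01), edgeR (0.09 and 0.01) and DESeq2 (0.09 and 0.01). The 7 genes share their libraries and vary together, so their common sign is not 7 separate observations. In limma 0 of the 7 genes were called by diet, beside 3.45% of all genes, and 3 of the 7 had an unadjusted p under 0.05, beside 2367 of the 14580 genes. In bulk cortex, fewer cells of a type and less RNA per cell cannot be told apart.

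**Figure D1:**
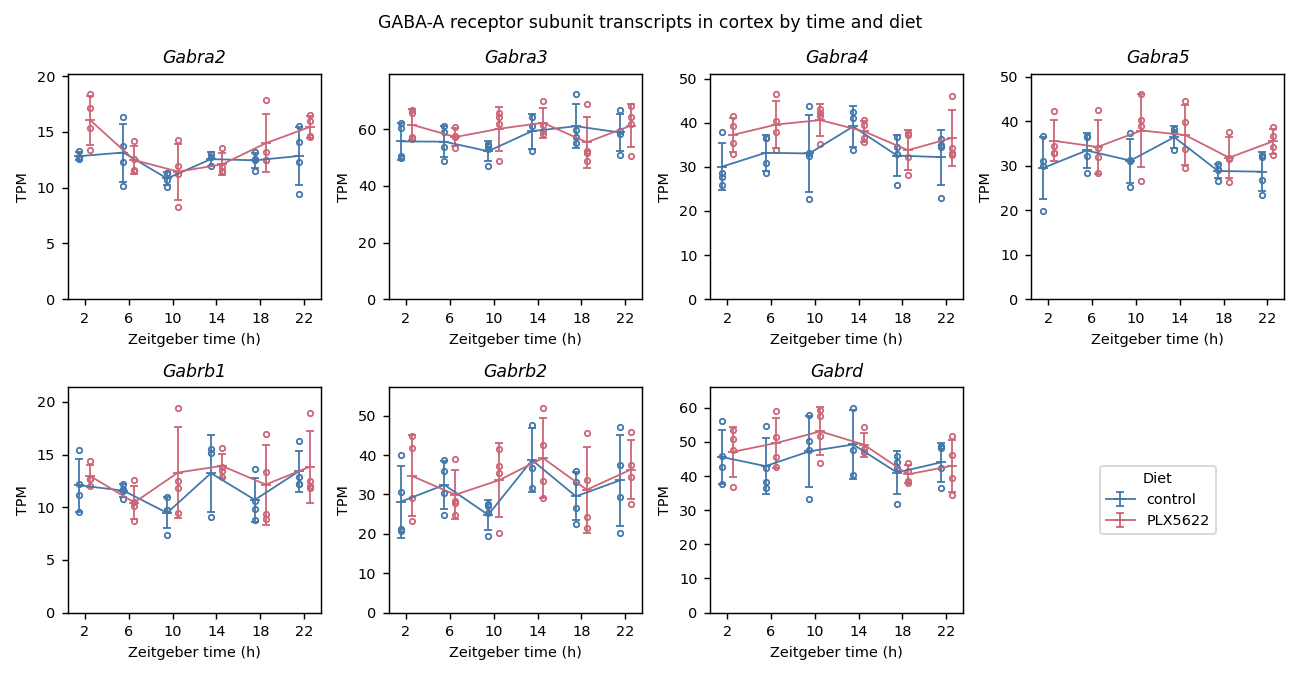
TPM of the 7 subunit genes (vertical axes, from 0) against Zeitgeber time in hours, with control mice in blue and PLX5622 mice in red. Circles are single mice, and lines join group means with bars of 1 SD (4 mice per group, 3 in control ZT14). The diets overlap at nearly every time, apart from Gabra2 at ZT2 by a narrow margin (lowest PLX5622 mouse 13.34, highest control mouse 13.32 TPM). The Gabra2 means of PLX5622 mice run from 11.4 TPM at ZT10 to 16.0 TPM at ZT2.

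The call of no member by diet was close to the threshold for Gabra4 and Gabra5. Gabra5 passed on the counts with edgeR (adjusted p = 0.0477, log2 difference 0.15) and DESeq2 (adjusted p = 0.0323), each of which called 1 of the 7 genes. Of the 14521 genes tested on the counts, edgeR called 1020 and DESeq2 1155. Gabra4 passed in limma without control ZT10 replicate 4 (adjusted p = 0.0472), without control ZT14 replicate 3 (0.0494) or without PLX5622 ZT18 replicate 2 (0.0436). With 3 principal components of the residuals as covariates, which leave the estimates as they are and shrink the SE, 5 of the 7 genes passed, all but Gabra3 and Gabrd. This setting called 2558 of the 14580 genes. The components come from the residuals of the same genes, so a smaller SE was built in. Across the 12 alternatives and the 47 fits that each left out 1 library, the difference ran from 0.13 to 0.20 for Gabra4 and from 0.12 to 0.20 for Gabra5, and it stayed above 0 for all 7 genes. Some of the smaller differences moved by over 1.5 times: that of Gabra2 was 0.07 with edgeR and DESeq2, that of Gabra3 was 0.04 with median-of-ratios scaling, and that of Gabrd was 0.05 without control ZT10 replicate 2.

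Time by time, the PLX5622 mean of log2(TPM + 1) was the higher one in 34 of 42 pairs of a gene and a ZT. Of all genes tested, 9448 of 14580 had a diet estimate above 0 over all times. That is a different measure, and the share over all pairs of a gene and a ZT was not computed. The differences of Gabra4 on the log2 scale were 0.31 at ZT2, 0.25 at ZT6, 0.32 at ZT10, -0.04 at ZT14, 0.05 at ZT18 and 0.19 at ZT22. Those of Gabra5 ran from 0.00 at ZT14 to 0.31 at ZT22. At ZT14, where the control group had 3 mice, the control means of both genes were the highest of the 6 times (39.2 and 36.4 TPM). In 1 of the 42 pairs every PLX5622 mouse stood above every control mouse, for Gabra2 at ZT2. The margin was narrow, with the lowest PLX5622 mouse at 13.34 TPM and the highest control mouse at 13.32 TPM. Over all pairs of a tested gene and a ZT, 4.55% had diets that did not overlap.

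Marker lists of neighbouring regions and of other cell types moved with some of these genes. All 9 genes of the striatum list were detected, led by Penk at 272 TPM, Ppp1r1b at 245 TPM and Tac1 at 77.9 TPM, and none was at 0. Their summed level was 764 ± 285 TPM (SD, n = 23) in control mice and 833 ± 223 TPM (SD, n = 24) in PLX5622 mice, and it ranged from 245 to 1241 TPM over single libraries. All 9 had estimates above 0 in the diet comparison, 0 passed in limma (0 with an unadjusted p under 0.05), and their median was 0.18. Within groups the mean of the list went with Gabra4 (Pearson r = 0.48, Spearman rho = 0.40, n = 47, r = 0.36 without the 2 farthest libraries) and Gabrd (r = 0.54, rho = 0.50, r = 0.41 without the 2 farthest), but not with Gabra5 (r = -0.22). With this mean as a covariate, a setting chosen after the data were seen, the diet difference was 0.15 (SE 0.057, adjusted p = 0.142 in limma) for Gabra4 and 0.03 (SE 0.055) for Gabrd.

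Of the 10 genes of the hippocampus list, 6 passed the filter, led by Wfs1 at 33.9 TPM, while Lct, Dsp, Tdo2 and Iyd had means under 1 TPM. Their summed level was 68.0 ± 13.8 TPM in control mice and 72.5 ± 13.8 TPM in PLX5622 mice. Within groups the mean of the list went with Gabra5 (r = 0.71, rho = 0.74, n = 47), Gabrb2 (r = 0.57) and Gabrb1 (r = 0.45). Gabra5 went as closely with the pan-neuronal list (r = 0.74, rho = 0.80) and the list for cortical excitatory neurons (r = 0.69, rho = 0.72), neither of which was run as a covariate. The list for cortical interneurons had r from 0.41 (Gabra2) to 0.70 (Gabrb2) with the subunit genes. With the mean of the hippocampus list as a covariate, again chosen after the data were seen, the difference of Gabra5 was 0.12 (SE 0.047, adjusted p = 0.193 in limma), that of Gabrb2 was 0.06 (SE 0.088) and that of Gabrb1 0.06 (SE 0.070). The list for microglia fell from 592 ± 69.9 to 64.7 ± 27.9 TPM, and all 12 of its genes were called. Within groups it had r from -0.12 (Gabra5) to 0.26 (Gabra2 and Gabra3) with the subunit genes. In control mice r was 0.63 for Gabrb1, 0.61 for Gabra3 and 0.51 for Gabrb2, against 0.15, 0.24 and 0.05 in PLX5622 mice. Gabra2 went the other way, with 0.00 in control and 0.36 in PLX5622 mice. In the same order Gabrd had 0.36 and 0.32, Gabra4 0.22 and 0.13, and Gabra5 0.13 and -0.20. The lists for pan-neuronal genes (3264 ± 385 and 3333 ± 386 TPM), cortical excitatory neurons (798 ± 140 and 802 ± 123 TPM) and cortical interneurons (881 ± 131 and 924 ± 114 TPM) differed by less than their SD, with 0 of 7, 0 of 12 and 0 of 11 genes called in limma and 1 gene in each with an unadjusted p under 0.05. The choroid plexus list, led by Ttr at 650 TPM, had 539 ± 303 and 806 ± 255 TPM and 2 of 7 genes called, Ttr and Kl (Kl named after its value was seen), both higher in PLX5622 mice; within groups it had r from -0.42 (Gabra3) to -0.07 (Gabra4) with the subunit genes, and its part in their diet differences was not tested.

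The astrocyte list of 7 genes, led by Aldoc at 1080 TPM, had a summed level of 2030 ± 239 TPM (SD, n = 23) in control mice and 2035 ± 215 TPM (SD, n = 24) in PLX5622 mice. In limma 1 of its 7 genes was called, and 4 had an unadjusted p under 0.05. That gene was Gfap, a filament of astrocytes named after its value was seen, with a log2 difference of 0.56 (SE 0.087) and an adjusted p of 5.49e-06 in limma. Within groups the mean of the list was lower where Gabra4 (r = -0.51, rho = -0.46, n = 47) and Gabrd (r = -0.54, rho = -0.49) were higher. The oligodendrocyte list of 7 genes, led by Mbp at 3806 TPM, had 6019 ± 1027 and 5806 ± 990 TPM. Its mean of log2(TPM + 1) went the other way, with 8.33 in control and 8.42 in PLX5622 mice. In the diet comparison 5 of its 7 estimates were above 0, with a median of 0.15. Here 1 gene was called, Cldn11, a junction protein of myelin named after its value was seen (log2 difference 0.24, SE 0.069, adjusted p = 0.0376 in limma), and 3 had an unadjusted p under 0.05. This list had r from -0.12 (Gabrd) to 0.32 (Gabrb1) with the subunit genes. The list for oligodendrocyte precursors, of 4 genes led by Olig2 at 18.6 TPM, had 43.4 ± 5.49 and 45.6 ± 6.34 TPM. Its mean went closely with Gabrb1 (r = 0.81, rho = 0.74), Gabrb2 (r = 0.80, rho = 0.78) and Gabra3 (r = 0.71, rho = 0.68). The endothelial list, of 5 genes led by Cldn5 at 64.9 TPM, had 135 ± 22.1 and 136 ± 16.4 TPM and went with Gabrb1 (r = 0.71, rho = 0.64), Gabra3 (r = 0.52) and Gabrb2 (r = 0.50). Of the thalamus list 8 of 9 genes passed the filter, and of the list for cerebellar granule and Purkinje cells 6 of 8. Their r with the subunit genes ran from -0.15 (Gabrd) to 0.38 (Gabrb2) and from -0.22 (Gabra4) to 0.07 (Gabra5 and Gabrb2). The r of -0.22 joined opposite signs, with -0.54 in control and 0.28 in PLX5622 mice. In these 4 lists limma called 0 genes by diet, and 0 had an unadjusted p under 0.05. The part of the astrocyte, oligodendrocyte, precursor and endothelial lists in the diet differences was not tested.

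The second comparison asked which subunit transcripts followed a 24-h rhythm over both diets. Gabra2 was the one gene of the 7 that was called, beside 5.26% of all genes tested. In control mice its values were 12.6, 12.6, 13.3 and 12.8 TPM at ZT2. At ZT6 they were 13.7, 10.2, 16.4 and 12.3 TPM, and at ZT10 11.3, 10.7, 10.0 and 11.3 TPM. The 3 control mice at ZT14 had 13.0, 11.9 and 12.7 TPM, and the groups at ZT18 and ZT22 had 12.6, 13.2, 11.5 and 12.5 TPM and 9.42, 12.3, 14.1 and 15.5 TPM. The control means thus lay between 10.8 TPM at ZT10 and 13.1 TPM at ZT6, with single mice at ZT6 and ZT22 spread over most of the whole range.

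In PLX5622 mice the values of Gabra2 were 15.3, 13.3, 18.4 and 17.1 TPM at ZT2 and 11.6, 11.5, 14.2 and 12.6 TPM at ZT6. They were 11.97, 8.22, 11.3 and 14.3 TPM at ZT10 and 11.9, 11.5, 13.5 and 11.4 TPM at ZT14. At ZT18 they were 12.5, 13.2, 12.4 and 17.8 TPM, and at ZT22 16.5, 14.6, 16.0 and 14.5 TPM. The mean was 1.40 times higher at ZT2 than at ZT10 (16.0 ± 2.19 against 11.4 ± 2.50 TPM, SD, n = 4). Single mice of these groups overlapped, with 13.3 TPM as the lowest at ZT2 and 14.3 TPM as the highest at ZT10. Over both diets the fitted amplitude, the height of the peak above the mean, was 0.16 on the log2 scale with a peak at ZT 23.3, around the end of the dark phase (unadjusted p = 6.9e-04, adjusted p = 0.0217, F test in limma). With ZT as a factor of 6 levels in place of the cosine and sine the call was lost (adjusted p = 0.0598); it held when any 1 library was left out. Markers of some other cells followed time as well. The summed endothelial list in PLX5622 mice was likewise highest at ZT2 (159 ± 9.23 TPM) and lowest at ZT10 (116 ± 11.1 TPM, SD, n = 4), and in control mice it was highest at ZT2 (157 ± 18.5 TPM) and lowest at ZT18 (112 ± 15.0 TPM). In limma 1 of its 5 genes was called for a rhythm, Cldn5, with an amplitude of 0.38 and a peak at ZT 0.653 (adjusted p = 2.87e-08), and 3 had an unadjusted p under 0.05. Of the 4 genes for oligodendrocyte precursors 1 was called, Gpr17, with a peak at ZT 19.9 (adjusted p = 0.00619). Both genes were named after their values were seen. Within groups Gabra2 had r = 0.13 with the endothelial list and 0.47 with the precursor list, and the part of either in its rhythm was not tested.

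The other 6 genes were not called over both diets, and none of them had an unadjusted p under 0.05 in the main limma fit. Gabrd came closest, with an amplitude of 0.11 and a peak at ZT 9.04 (unadjusted p = 0.0581, adjusted p = 0.270). Its group means ran from 40.5 ± 2.67 TPM at ZT18 to 53.1 ± 7.02 TPM at ZT10 in PLX5622 mice, where the lowest of the 4 mice at ZT10 had 43.8 TPM and the highest at ZT18 had 43.7 TPM. In control mice the Gabrd means lay between 41.0 ± 6.30 TPM at ZT18 and 49.2 ± 9.99 TPM at ZT14, and these groups overlapped. Gabra4 and Gabra5 peaked at ZT 10.8 and 10.1 with amplitudes of 0.08 each. The median amplitude of the 7 genes was 0.08, and that of all genes tested was 0.07. Some other limma settings gave a lower unadjusted p. With the mitochondrial share as a covariate it was 0.0452 for Gabrd and 0.0269 for Gabrb1, and with the striatum list 0.0128 for Gabrd. With 3 principal components of the residuals it lay between 0.0207 and 0.0279 for Gabra5, Gabrb1, Gabrb2 and Gabrd. None of these passed after adjustment.

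Within each diet, rhythms were called with JTK_CYCLE, a rank test for a 24-h cycle. In control mice 0 of 7 genes were called, beside 0.0754% of all genes, and none had an unadjusted p under 0.05, beside 1243 of the 14580 genes. In PLX5622 mice 0 of 7 genes were called as well, beside 0.61% of all genes. Gabra2 (unadjusted p = 0.00212, adjusted p = 0.127) and Gabrd (unadjusted p = 0.0362, adjusted p = 0.401) had an unadjusted p under 0.05, beside 1615 of the 14580 genes. A limma test of the cosine and sine within each diet also called 0 of 7 in both. In that test Gabra2 came close to the threshold in PLX5622 mice (unadjusted p = 6.3e-04, adjusted p = 0.0586). Its adjusted p in control mice was 0.763. The amplitude of Gabra2 was 0.07 (SE 0.053, n = 23) without the drug and 0.24 (SE 0.053, n = 24) with it, and the fitted peaks lay at ZT 23.6 and ZT 23.1. That of Gabrd was 0.05 (SE 0.072) and 0.17 (SE 0.053). Gabra2 was called in PLX5622 mice when JTK_CYCLE was run on median-of-ratios scaled TPM (adjusted p = 0.0356) or on FPKM computed from the counts (adjusted p = 0.0203). These runs called 160 of 14580 and 197 of 14521 genes.

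The amplitudes of Gabra2 were not shown to differ between the diets. The interaction of diet with cosine and sine had an unadjusted p of 0.0981 for Gabra2, the smallest of the 7, and of 0.356 for Gabrd. Limma called 0 of 7 genes and 0% of all 14580 genes for a difference in rhythm, edgeR and DESeq2 called 0 genes on the counts, and 669 genes but none of the 7 had an unadjusted p under 0.05 in limma. With 3 principal components of the residuals as covariates, 237 genes but none of the 7 were called. The unadjusted p of Gabra2 was lower in some settings, at 0.0204 with median-of-ratios scaling, 0.0180 with 3 principal components of the residuals as covariates, 0.0494 with the mitochondrial share as a covariate (chosen after the data were seen) and 0.0400 without PLX5622 ZT10 replicate 4. It was 0.265 with ZT as a factor. Gabra3 had 0.0219 with the principal components and 0.0445 with DESeq2. No adjusted p of the 7 genes passed the threshold in any of these settings, and the lowest was 0.195, for Gabra2 with the principal components.

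Promoter sequences of RefSeq (GRCm38.p6), of 300 bases around each start, were found for 6 of the 7 genes, 10 promoters in all, with Gabrd named only. They were searched on both strands for the E-box CACGTG, the D-box TTATGTAA, the cyclic AMP element TGACGTCA and AGGTCA, the core of the site of ROR proteins, which are bound by clock factors or factors that act on clock genes. None of the 10 held any of the 4 motifs. Of all 32851 promoters of this length, 7.15% held the E-box, 0.938% the D-box, 1.79% the cyclic AMP element and 16.3% AGGTCA. The promoter of Gabra2, the gene called for a rhythm, and those of the neighbours Gabra4 and Gabrb1, which start head to head, are shown 5′ to 3′ in lower case, with no capitals because no motif was found. RefSeq lists 2 promoters of Gabrb1, and the second, at chr5:71699682-71699981 (plus strand, 50.3% G or C), is not shown. RefSeq places the first start of Gabrb1 before the GENCODE start given above, so this window ends before it. They lie at chr5:71095800-71096099 (minus strand), chr5:71658259-71658558 (minus strand) and chr5:71657671-71657970 (plus strand), and 70.0%, 58.7% and 66.0% of their bases are G or C, where the median of all promoters is 52.7%.
Gabra2: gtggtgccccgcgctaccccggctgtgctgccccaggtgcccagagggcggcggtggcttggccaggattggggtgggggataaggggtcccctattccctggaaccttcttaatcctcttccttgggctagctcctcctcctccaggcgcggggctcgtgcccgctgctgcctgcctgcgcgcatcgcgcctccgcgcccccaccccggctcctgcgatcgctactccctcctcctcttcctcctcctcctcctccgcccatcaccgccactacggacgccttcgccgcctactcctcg
Gabra4: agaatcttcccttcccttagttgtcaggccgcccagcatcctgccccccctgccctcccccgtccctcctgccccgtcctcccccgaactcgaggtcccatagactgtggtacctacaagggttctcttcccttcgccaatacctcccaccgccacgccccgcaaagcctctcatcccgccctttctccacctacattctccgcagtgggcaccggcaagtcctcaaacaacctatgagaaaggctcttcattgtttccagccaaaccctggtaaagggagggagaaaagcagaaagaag
Gabrb1: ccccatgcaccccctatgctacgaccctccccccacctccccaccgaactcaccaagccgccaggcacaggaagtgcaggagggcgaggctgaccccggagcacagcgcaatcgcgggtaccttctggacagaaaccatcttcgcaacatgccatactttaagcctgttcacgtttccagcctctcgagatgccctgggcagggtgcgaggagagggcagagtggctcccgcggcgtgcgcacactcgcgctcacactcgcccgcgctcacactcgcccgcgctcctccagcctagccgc

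The subunit genes also varied together between mice of the same group. After group means were subtracted from log2(TPM + 1), all 21 pairs of genes had a Pearson r above 0 over the 47 libraries, with a median of 0.48, and 10 pairs exceeded 0.5. Over all pairs of the 14580 genes tested 69.9% had an r above 0 and 11.4% exceeded 0.5, with a median of 0.14. Gabra3 and Gabrb2 were the closest pair (r = 0.84, rho = 0.84), at 0.85 in control and 0.84 in PLX5622 mice. Gabra4 and Gabrd followed with r = 0.78 (rho = 0.74), and at 0.80 and 0.74 within the diets. Gabra4 and Gabrb1, whose 5′ ends overlap, were among the least alike (r = 0.18, rho = 0.20), close to Gabrb1 and Gabrd (r = 0.17, rho = 0.14). The genes of a library share its RNA quality and dissection, so these values are descriptions.

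Part of this spread went with a feature of the whole library. The first principal component of the within-group spread of all genes took 15.8% of the variance and had r = 0.95 with Gabrb2, 0.85 with Gabra3 and 0.49 with Gabrd (n = 47). The mitochondrial share of the counts, from 6.46% to 10.0% with medians of 8.57% in control and 8.54% in PLX5622 mice, was lower where the subunit genes were higher, with r = -0.79 (rho = -0.77) for Gabrb2, -0.73 for Gabra3 and -0.43 for Gabra2 and Gabrd. Without the 2 libraries farthest from the median share, r was -0.75 for Gabrb2. The pan-neuronal list had r = 0.95 with Gabrb2 and 0.52 with Gabrd. With the mitochondrial share as a covariate, chosen after the data were seen, the diet difference kept its size for Gabra4 (0.19, SE 0.054, adjusted p = 0.0280 in limma) and Gabra5 (0.17, SE 0.052, adjusted p = 0.0328), and both passed the threshold. This setting called 987 of the 14580 genes.

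**Figure D2:**
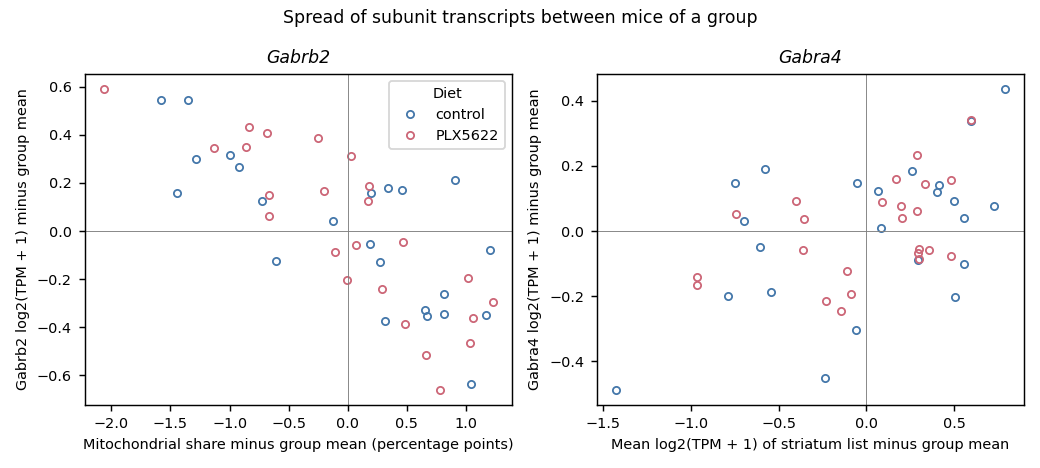
Left, log2(TPM + 1) of Gabrb2 against the mitochondrial share of the counts in percentage points; right, log2(TPM + 1) of Gabra4 against the mean log2(TPM + 1) of the striatum list, each with its group mean subtracted. Each circle is 1 of 47 mice, control in blue and PLX5622 in red; Gabrb2 is lower where the share is higher (r = -0.79), and Gabra4 is higher where the striatum list is higher (r = 0.48).

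For each gene the 3 tested genes with the most similar spread within groups were taken by Pearson r over the 47 libraries. They were Rnf217 (r = 0.81), Trmt1l and Prrc2c (both r = 0.80) for Gabra2, and Fam49a (r = 0.89), Mtpn and Gpd1l (both r = 0.88) for Gabra3. Gabra4 was most like Psmd14 (r = 0.84), Calm2 and Gnb5 (both r = 0.83), and Gabra5 was most like Kit, Crhbp and Tmem74 (each r = 0.85). For Gabrb1 these were Sptbn1 (r = 0.86), Arhgap35 and Cpeb3 (both r = 0.85), for Gabrb2 Atrn, Arfgef3 and Kcna2 (each r = 0.96), and for Gabrd Ngef (r = 0.89), Rgs4 (r = 0.86) and Chn1 (r = 0.82).

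Other genes of GABA signalling were set beside the subunits as a list of 26 genes for synthesis, transport, breakdown, chloride balance, anchoring and GABA-B receptors, all of which passed the filter. By diet 1 of 26 was called in limma, in the lower direction, beside 3.45% of all genes, and the median difference was -0.02. That gene was Kctd12, an auxiliary subunit of GABA-B receptors, with 24.5 ± 4.36 TPM (SD, n = 23) in control mice and 19.7 ± 5.78 TPM (SD, n = 24) in PLX5622 mice (log2 difference -0.33, SE 0.086, adjusted p = 0.0166 in limma). The genes of the GABA-synthesizing enzymes, Gad1 and Gad2, had 118 ± 27.7 and 131 ± 36.0 TPM, and 40.8 ± 8.49 and 44.6 ± 10.9 TPM, with differences of 0.13 (SE 0.10) and 0.11 (SE 0.094). Slc32a1, the vesicular GABA transporter, had 58.6 ± 11.9 and 58.2 ± 11.6 TPM. Gphn, the scaffold gephyrin that anchors GABA-A receptors at synapses, had 19.2 ± 1.66 and 20.96 ± 2.57 TPM (0.11, SE 0.045, adjusted p = 0.183 in limma), and Slc12a5, a chloride exporter, 122 ± 20.3 and 119 ± 22.7 TPM. For a rhythm over both diets, 0 of 26 genes were called in limma, beside 5.26% of all genes. An unadjusted p under 0.05 was found for 1 of them, beside 2882 of the 14580 genes. For a difference in rhythm 0 of 26 were called, beside 0% of all genes, and 0 had an unadjusted p under 0.05, beside 669 of the 14580 genes.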

How the data were processed

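RNA of 47 cortex libraries was analysed, 1 per mouse, grouped by the diet and Zeitgeber time in the sample labels. The TPM values were computed and deposited by the authors, who mapped reads to GRCm38.p6 with STAR, kept the primary chromosomes and quantified genes with Salmon and the Gencode annotation. The second table, named for FPKM, holds whole-number counts as deposited, without normalization; the submitters' processing notes name STAR and featureCounts, and the settings behind these counts are not given in the sources used here. Genes were named by GENCODE M21, which held 99.7% of the TPM table's identifiers and 99.8% of those of the count table. The members and lists were chosen with earlier results of these data known.

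Tests used log2(TPM + 1), so that a difference understates the change of low genes, and took genes whose mean over all libraries reached 1 TPM. Diet and time were tested with limma 3.58.1 in R 4.3.3, and rhythms within a diet with JTK_CYCLE, written for this purpose with 6 phases. P-values were adjusted by Benjamini-Hochberg over all 14580 genes, with a threshold of 0.05, and all tests of diet were two-sided. Counts were tested with edgeR 4.0.16 and DESeq2 1.42.0 as alternatives. The code was tested on simulated data. No 2 libraries of a group agreed within counting error (69 pairs, chi-square divided by its degrees of freedom at least 4.3). Named genes were the 7 subunits, every gene of the GABA list past the threshold with Gad1, Gad2, Slc32a1, Gphn and Slc12a5, the 3 genes most like each subunit, checks of the labels, and up to 3 leading genes of a described marker list. Other subunit genes are not reported here.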

Additional observations from a re-analysis of the deposited data

Results flagged for a closer look

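Of 77 sets of 4 values, for 7 genes in 11 groups of 4 mice, 7 held a value far from the other 3, where chance gives about 1 in 20. Sets of different genes share their mice. Gabra2 was 17.8 TPM in PLX5622 ZT18 replicate 4, with the others between 12.4 and 13.2 TPM. Gabra4 was 46.1 TPM in PLX5622 ZT22 replicate 3 (others 32.7 to 34.3 TPM) and 22.9 TPM in control ZT22 replicate 1 (others 34.6 to 36.3 TPM). Gabra5 was 42.4 TPM in PLX5622 ZT2 replicate 3 (others 32.8 to 34.3 TPM). Gabrb1 was 19.0 TPM in PLX5622 ZT22 replicate 4 (others 11.8 to 12.5 TPM) and 16.3 TPM in control ZT22 replicate 3 (others 12.2 to 12.9 TPM). Gabrd was 54.5 TPM in PLX5622 ZT14 replicate 3 (others 47.1 to 48.0 TPM). Their part in the results was measured by leaving out each library in turn, and none of these 7 changed a call of a subunit gene in limma.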

How the results depend on the processing

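The diet differences of all 7 genes stayed above 0 in each alternative. For calls by diet, where the main counts were 0 of 7 and 503 of 14580, the counts were 5 and 2558 with 3 principal components of the residuals as covariates, 2 and 987 with the mitochondrial share as a covariate, chosen after the data were seen, 1 and 1020 with edgeR, and 1 and 1155 with DESeq2. A mean of at least 5 TPM, with fewer genes tested, gave 0 and 298. Leaving out 1 library gave 0 to 1 of the 7 genes. For a rhythm over both diets (1 of 7 and 767), ZT as a factor gave 0 and 1609, median-of-ratios scaling 1 and 1345, the principal components 1 and 4270, edgeR 1 and 2007, and DESeq2 1 and 2336. For a difference in rhythm, the principal components called 237 genes, none of the 7. With JTK_CYCLE in control mice (11 genes), 0 genes were called without a filter, 40 after median-of-ratios scaling, 80 on FPKM and 36 with limma, and 0 to 18 when 1 library was left out, over 1.5 times from 11 for 12 of 23 libraries. In PLX5622 mice (89 genes) these were 43, 160, 197 and 135, and 38 to 114, over 1.5 times away for 12 of 24 libraries. Of the 7 genes, 1 was called there after median-of-ratios scaling and 1 on FPKM. Apart from the filters, the cause was not tested.

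The labels number the mice of each group without saying what a number marks. Over 253 pairs of same-numbered libraries, of 1012 pairs of different groups, the within-group deviations had a median r of 0.05, against -0.02 for other pairs. Of the 253, 76 exceeded 0.1, and the numbers were not taken as a pairing. The same count was not made for other pairs, so it cannot show whether the numbers mark a pairing. That 23 of 47 libraries correlated best with a library of their own number is a hint from the data, not the design. With the replicate block, 1 of the 7 genes was called by diet (Gabra4, adjusted p = 0.0497 in limma) and 1 for a rhythm, with 578 and 1043 genes in all. With 23 and 24 mice, the SE of the diet difference lay between 0.05 and 0.11 for the 7 genes, which limits what could be seen.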
